A study of Mus musculus with 2 samples.

Results

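Heat shock proteins and their DnaJ cochaperones were examined in RNA from intestinal epithelial cells of mice. The members were all probes, other than control probes, whose gene name in both scanner files starts with Hspa, Hspb, Hspd, Hspe, Hsph, Hsp90 or Dnaj. This rule took 110 of 55678 probes, which name 73 of 23692 genes. Of these genes, 39 code for cytosolic chaperones, 8 for mitochondrial, 14 for endoplasmic reticulum (ER) and 3 for nuclear ones. A further 3 genes carry the name without being chaperones themselves (Hspb11, Hspbap1 and Hspbp1), and 6 were given no compartment.

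The cholic acid sample came from intestinal segments of wild type male mice kept for 2 h in 0.5 µM cholic acid, a primary bile acid. Its control came from segments of wild type male mice kept for 2 h in vehicle, which was 0.25% ethanol with 0.05% DMSO. The series asks which genes bile acids may regulate through the nuclear receptor PPARα. RNA of the epithelial cells of each condition was hybridised to 1 one-colour array, so the differences below lack replicates and none was tested. The labels do not say how many mice were used, their age or whether their segments were pooled, and do not state where along the gut the segments lay beyond the letters S_I in the sample titles.

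HSP70 proteins bind unfolded stretches of other proteins and release them in a cycle of ATP binding and hydrolysis. DnaJ proteins bring clients to HSP70 and speed up the hydrolysis, and HSP110 proteins exchange the nucleotide. HSP90 acts later, on partly folded clients, small heat shock proteins hold unfolded ones, and the HSP60 and HSP10 chaperonin folds proteins inside mitochondria. Some cytosolic members are induced by heat shock factor 1 (HSF1), and some ER members by the unfolded protein response, which secretory and absorptive gut cells rely on.

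All values are scanner intensities with background subtracted. At the 75th percentile of the probes well above background on both arrays the intensity was 741 on the cholic acid array and 1060 on the vehicle array. Each array was scaled to its own percentile, so a gene with a log2 difference (cholic acid minus vehicle) of 0 has a cholic acid intensity 0.699 times that of vehicle. The median difference of all 12824 genes measured on both arrays was 0.08, and under other scalings it moved by up to 0.23 downwards (shift of -0.23), so a small difference of either sign is best read against it. Of all genes at least 2-fold apart, 76.2% were higher in cholic acid, against 44.2% to 58.3% under the other scalings. The defining epithelial markers were present: all 12 enterocyte markers were measured, with a summed scaled signal of 1393 on the cholic acid array and 1350 on the vehicle array, in multiples of the 75th percentile. Yet 9 of the 12 had a difference below 0, with a median of -0.35, and the sum is led by a few very bright genes such as Fabp2. All 12 T cell markers were measured too, with sums of 169.5 in cholic acid and 110.05 in vehicle, and 11 of the 12 had a difference above 0. These sums are led by Gzma, with intensities of 97600 in cholic acid and 87500 in vehicle. Of the 7 B and plasma cell markers, 4 were measured, with sums of 1.38 in cholic acid and 0.262 in vehicle, Ms4a1 was well above background in cholic acid only, and Igj had no probe. The smooth muscle sums were 1.102 in cholic acid and 0.833 in vehicle over 4 of 6 markers, with Myh11 and Des not well above background on either array, and the fibroblast sums were 0.707 in cholic acid and 0.424 in vehicle over 4 of 6, with Lum and Pdgfra not well above background. The part of these other cells in the results below was not tested, and fewer cells of a type cannot be told apart from less RNA per cell.

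Most of the chaperone machinery was expressed. The scanner software flagged 84 of the 110 probes (76.4%) as well above background on both arrays, where it flagged 40.6% of all probes, and only such probes count as measured here. By gene, 58 of 73 members were measured on both arrays (79.5%), against 54.1% of all genes with a probe. The ER and mitochondrial sets were complete, with 14 of 14 and 8 of 8 genes, and so were the 3 nuclear genes, whereas 29 of 39 cytosolic genes were measured.

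Several of the members missing from the gut arrays are known from other tissues. So are Hspa2, Hspb9 and Dnajb2, however, which were measured on both arrays. Neither array had a probe well above background for Hspa1l, Dnajb7 and Dnajb13, known from testis or sperm, Hspb2, Hspb3 and Hspb7, small heat shock proteins of muscle and heart, Hspa12b, an HSP70 relative of endothelial cells, Dnajc6, the auxilin of clathrin uncoating, and Hspb8, the partner of the cochaperone Bag3. The same held for Hspbap1 and for Dnajc5b, Dnajc5g, Dnajc27 and Dnajc28. Hspb8 had intensities of 2.94 in cholic acid and 3.16 in vehicle. Hspb3 read 2.97 in cholic acid and 3.20 in vehicle. Both pairs lie at the low end of the scale, where the lowest probe well above background read 11.2 in cholic acid and 14.6 in vehicle.

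**Figure D1:**
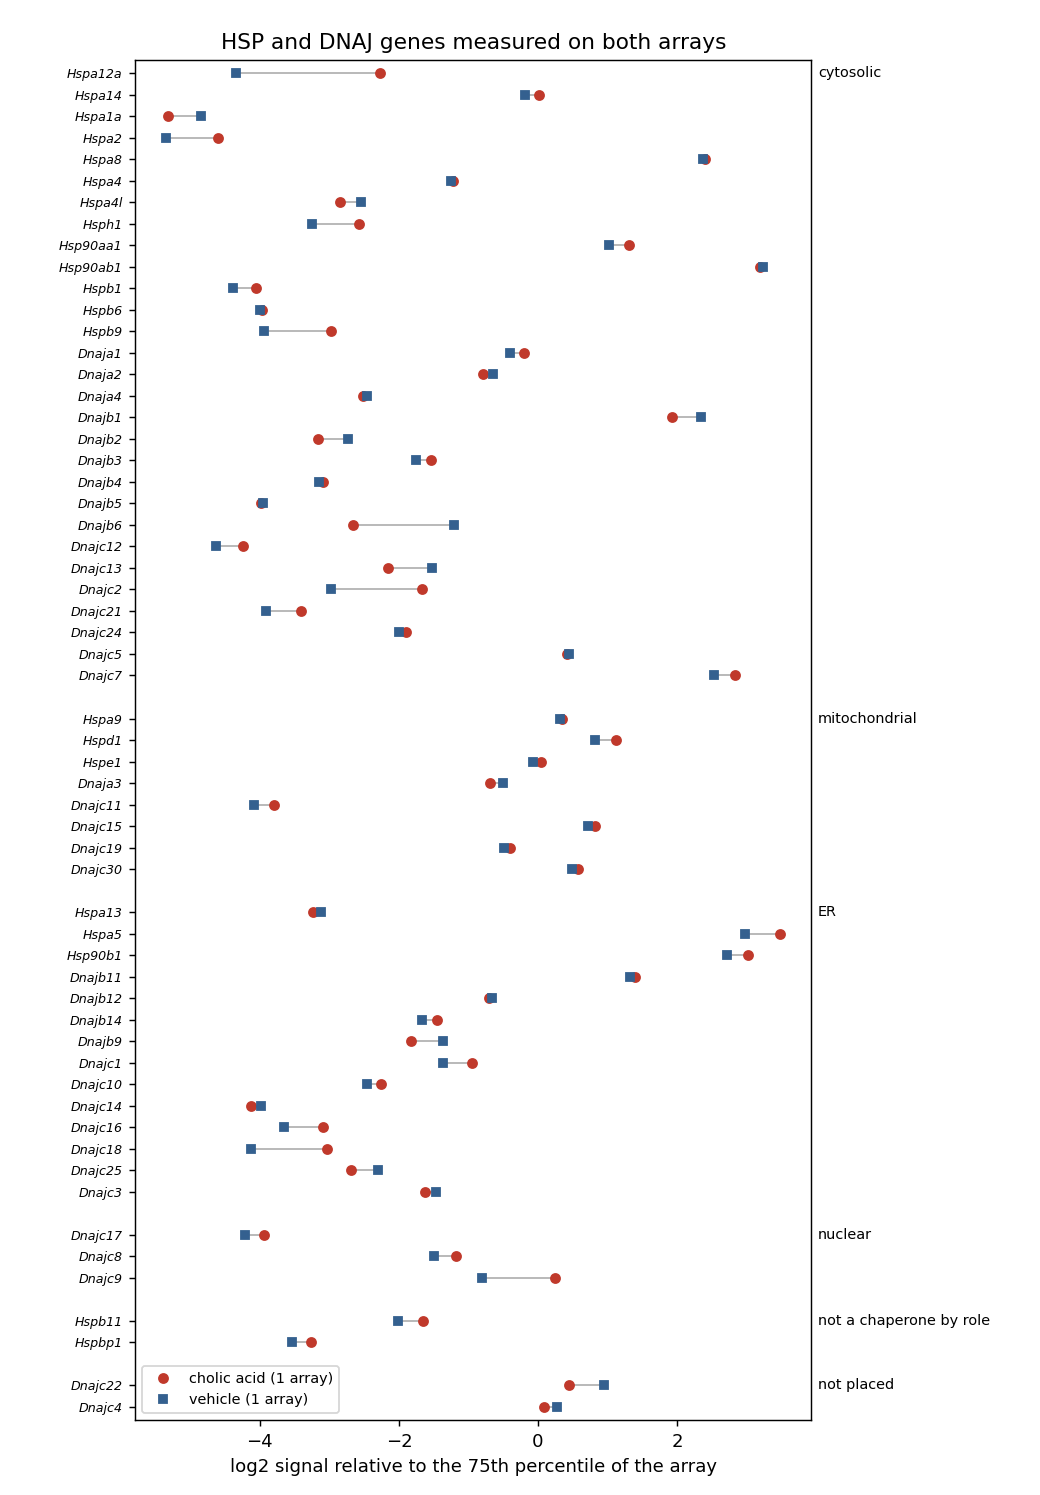
Log2 signal relative to the array's 75th percentile for the 58 genes measured on both arrays, cholic acid as red circles and vehicle as blue squares, grouped by compartment. Most pairs nearly coincide; Hspa12a, Dnajc2, Dnajc18, Dnajc9 and Dnajb6 are the pairs at least 2-fold apart. Levels of different genes come from different probes and cannot be ranked.

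Across the family the difference between the arrays was small. The median log2 difference of the 58 measured genes was 0.10, against 0.08 for all genes, and 49 of the 58 lay within 1.5-fold. Hspa12a, Dnajc2, Dnajc18 and Dnajc9 passed 2-fold upwards in cholic acid, which is 4 of 58 genes (6.9%) against 6.56% of all genes. Dnajb6 alone was at least 2-fold lower, 1 of 58 (1.72%) against 2.05% of all genes. Its gene mean averages 4 probes, of which 2 overlap at 1 site. A mean that takes this site as 1 probe was not computed. At 1.5-fold the counts were 7 higher (12.1%, against 17.8% of all genes) and 2 lower (3.45%, against 7.68%). By probe, 4 of 84 were at least 2-fold higher (4.76%, against 7.08% of all measured probes). The 2 lower ones (2.38%, against 1.94%) were the overlapping Dnajb6 probes. These shares are close to the background or below it. A difference above 0 was found in 38 of 58 genes (65.5%), against 57.4% of all genes. Above the median of all genes lay 30 of the 58, against 6412 of 12824 genes.

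The compartments overlapped. The median was 0.07 for the cytosolic genes (from -1.45 to 2.07), 0.09 for the mitochondrial genes (from -0.18 to 0.31) and 0.13 for the ER genes (from -0.46 to 1.097). Relative to the median of all genes these are -0.01, 0.01 and 0.05, and each of them changed sign under some other processing. Mitochondrial genes covered the narrowest range. The summed scaled signal was 34.8 in cholic acid and 34.1 in vehicle over the cytosolic genes, and 9.19 in cholic acid and 8.49 in vehicle over the mitochondrial ones. Over the ER genes it was 24.9 in cholic acid and 19.8 in vehicle, a sum made up largely by Hspa5 and Hsp90b1.

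**Figure D2:**
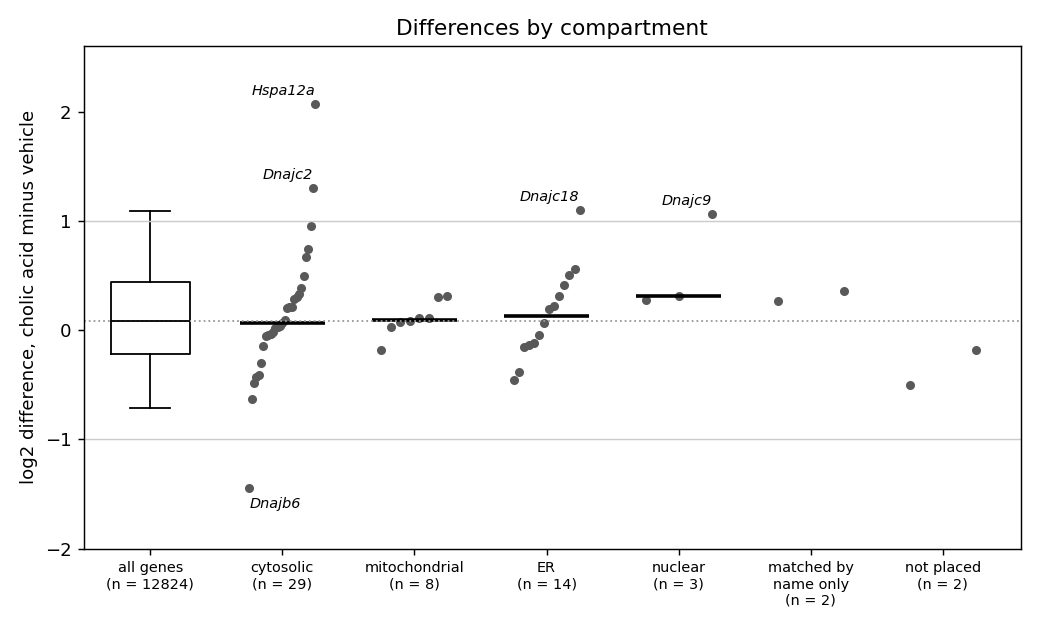
Log2 difference (cholic acid minus vehicle) of each measured gene by compartment, with the median as a bar where 3 or more genes were measured, beside all 12824 genes (box from the 25th to the 75th percentile, whiskers from the 5th to the 95th). The 3 main compartments have medians of 0.07, 0.09 and 0.13, near the dotted median of all genes (0.08), and 5 labelled genes lie beyond the lines at 2-fold.

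Among the cytosolic HSP70 proteins, the constitutive Hspa8 (HSC70), which uncoats clathrin and folds new proteins, was nearly the same on both arrays. Its 3 probes read 20400, 4700 and 633 in cholic acid, and 26500, 6500 and 956 in vehicle, and gave a mean log2 difference of 0.04, with the probes between -0.08 and 0.14. The stress-inducible Hspa1a read 18.5 ± 3.50 in cholic acid and 36.9 ± 4.87 in vehicle, where ± is the error that the scanner software assigns to a spot. Both readings were just above background, and the log2 difference was -0.48, with a scanner error of 0.33. The sign of this difference turned to 0.18 with another background correction (normexp). Hspa1b, its near-identical copy, was not analysed here, and the Hspa1a probe may not tell the copies apart.

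Hspa12a, a distant relative of HSP70, had the largest difference among the members' gene means measured on both arrays. Its single probe (mm9 chr19:58870521-58870580, minus strand) read 153 ± 15.7 in cholic acid and 52.2 ± 6.29 in vehicle, a log2 difference of 2.07 (4.19-fold higher). The scanner error of this difference was 0.23, and the robust SD among the 1000 genes nearest in signal was 0.52. It stayed at least 2-fold higher in the 9 of 9 alternative settings that measured it. Hspa14, the HSP70 of the ribosome-associated complex, had a log2 difference of 0.20 and Hspa2, best known from the testis, one of 0.74, from 30.4 in cholic acid and 26.0 in vehicle.

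Dnajc2, the DnaJ partner of Hspa14 on the ribosome (zuotin), was 2.47-fold higher in cholic acid. The probe (mm9 chr5:21272454-21272513, minus strand) read 233 ± 23.5 in cholic acid and 135 ± 14.0 in vehicle (log2 difference 1.30, scanner error 0.21, neighbour SD 0.46). Neither array showed the other Dnajc2 probe well above background. The members of this pair thus differ in size on these arrays, 1.30 against 0.20, and a difference between them was not tested.

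Among the exchange factors and the cytosolic HSP90 genes, Hsph1 had the largest difference. Hsph1 (HSP110) read 207 and 74.3 at its 2 probes in cholic acid, and 165 and 75 in vehicle, a mean log2 difference of 0.67, with both probes on the same side (0.84 and 0.50). It remained above the median of all genes in 10 of 10 alternatives. Hspa4 (Apg-2) had a mean of 0.02 over 3 probes, and Hspa4l (Apg-1) one of -0.30. Hsp90aa1, the inducible HSP90, read 1830 in cholic acid and 2150 in vehicle (0.28), and the constitutive Hsp90ab1 read 6760 in cholic acid and 9980 in vehicle (-0.05).

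Of the small heat shock proteins, 3 of 7 were measured. Hspb1 (HSP25) read 44.4 in cholic acid and 50.5 in vehicle (0.33), and Hspb6 (HSP20) read 47.5 in cholic acid and 66.6 in vehicle (0.03). Hspb9, known from testis, read 93.8 ± 9.82 in cholic acid and 69.4 ± 7.59 in vehicle (0.95, 1.93-fold higher).

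Among cytosolic DnaJ proteins, the bright Dnajb1 (HSP40), the usual cofactor of stress HSP70, read 2830 ± 283 in cholic acid and 5370 ± 537 in vehicle. After scaling this is a log2 difference of -0.41 (1.33-fold lower). Dnajc13, the endosomal RME-8, read 167 in cholic acid and 369 in vehicle (-0.63), and Dnajb2, a cofactor best known from neurons, had a mean of -0.43 over probes at -0.81 and -0.05. Dnajc7, which binds both HSP70 and HSP90, read 5270 in cholic acid and 6130 in vehicle (0.30). The inducible genes Hsph1, Hsp90aa1, Dnajb1 and Hspa1a therefore lay on both sides of 0. Of the other cytosolic DnaJ genes, Dnajc21, of ribosome biogenesis, had a mean of 0.50, and Dnaja2, Dnaja4, Dnajb3, Dnajb4, Dnajb5, Dnajc12 and Dnajc24 lay between -0.14 and 0.38. Dnaja1 had a mean of 0.21, but its bright probe (6070 in cholic acid, 10100 in vehicle) was at -0.22 and its dim probe (68.5 in cholic acid, 63.2 in vehicle) at 0.63.

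Dnajb8, a testis DnaJ that suppresses aggregation, was the only member gene well above background on a single array. It read 96.4 ± 10.1 in cholic acid and 9.68 ± 3.33 in vehicle, which gives a bound of 9.45-fold higher in cholic acid. This bound takes, for the vehicle array, the lowest signal of a probe well above background there (14.6) in place of the dim reading. The bound is not strict, because a probe not well above background can read more than that, as a Dnajc5 probe did on the vehicle array (16.9). Bounds of at least 2-fold upwards were found for 1.53% of all genes with a probe.

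Dnajb6, a DnaJ protein that suppresses aggregation of polyglutamine proteins, divided by probe. In mouse it has several transcript variants, and of its 4 probes 2 are assigned by the files to variant 1 and 2 to variant 2. The stretches below are the first 30 bases of each 60-base probe, shown because these probes differ more than those of any other gene. Capitals mark the stretch shared by the variant 1 probes, 51 bases long in full. That pair reads 1 site and is best taken as 1 measurement, although the gene mean averages all 4 probes.
Dnajb6 variant 1, from base 2550 of the transcript: CAAGGAGGAATGTATTTTAGTGCTACTGAC
Dnajb6 variant 1, from base 2544 of the transcript: gaccctCAAGGAGGAATGTATTTTAGTGCT
Dnajb6 variant 2, from base 376 of the transcript: gaagttcaaacaagtagctgaggcatatga
Dnajb6 variant 2, from base 500 of the transcript: agtccatttgagtttggcttcacattccgg

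The variant 1 probes were far dimmer in cholic acid. The probe from base 2550 (mm9 chr5:30112861-30112920, plus strand) read 49.2 ± 5.69 in cholic acid and 683 ± 68.4 in vehicle, a log2 difference of -3.28 (9.70-fold lower). The probe from base 2544 (mm9 chr5:30112855-30112911) read 110 ± 11.4 in cholic acid and 1180 ± 118 in vehicle, a log2 difference of -2.91 (7.50-fold lower). Among the 22613 probes measured on both arrays these ranked 2 and 3 from the lowest, where at least 2-fold lower held for 1.94% of probes. The neighbour SD was 0.47 at the first and 0.43 at the second.

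The probes assigned to variant 2 differed far less, at 0.47 and -0.06. The probe from base 376 (mm9 chr5:30077544-30078952, across a splice junction by its span) read 176 ± 17.8 in cholic acid and 182 ± 18.5 in vehicle. The probe from base 500 (mm9 chr5:30080099-30080158) read 200 ± 20.4 in cholic acid and 299 ± 30.1 in vehicle. Differences within Dnajb6 thus spanned 3.75, rank 1 of 3127 genes with several measured probes, of which 0.0959% spanned 3 or more. The gene mean of -1.45 (2.72-fold lower) is the average of these unlike probes and stands for neither variant. This mean was at least 2-fold lower in 10 of 10 alternatives, but those that average the probes take the variant 1 site as 2 probes. The exon or UTR that each probe lies in is not stated, because no mm9 annotation was part of the analysis. Whether the probes assigned to variant 2 also match variant 1, and whether the readings at the variant 1 site stand for the level of that transcript, was not tested.

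**Figure D3:**
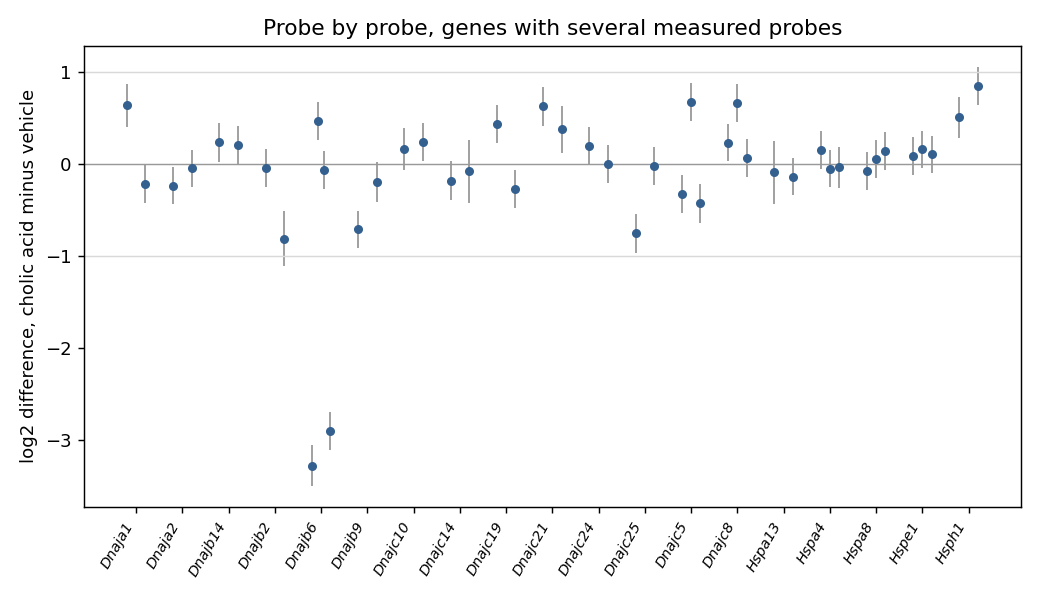
Log2 difference (cholic acid minus vehicle) of each probe for the 19 members with several measured probes. Error bars are the scanner software's error, not a spread between samples. The variant 1 probes of Dnajb6 sit at -3.28 and -2.91, while no other probe reaches 1 in either direction.

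Elsewhere the probes of a gene were closer to each other. Of 19 members with several measured probes, 2 (10.5%) had differences spanning at least 1, against 7.2% of all such genes, and in 7 (36.8%) the probes went opposite ways, against 33.2%. The second wide one was Dnajc5, the cysteine string protein of vesicle release. Its probes read 37300, 273 and 94.4 in cholic acid, and 33600, 491 and 182 in vehicle, with log2 differences of 0.67, -0.33 and -0.43. A Dnajc5 probe on another transcript (32.3 in cholic acid, 16.9 in vehicle) was well above background in cholic acid only. By these readings it was 2.73-fold higher there, with a scanner error of 0.40 on the log2 scale.

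In mitochondria the differences of the central machine ran from -0.18 to 0.31. Hspd1 (HSP60) read 1620 ± 162 in cholic acid and 1870 ± 187 in vehicle (0.31). Its partner Hspe1 (HSP10) read 1920, 1760 and 131 in cholic acid, and 2560, 2260 and 177 in vehicle, with a mean of 0.11 and probes between 0.08 and 0.16. Hspa9 (mortalin), the HSP70 of the matrix that pulls proteins in, read 944 in cholic acid and 1320 in vehicle (0.03), and its cofactor Dnaja3 read 461 in cholic acid and 749 in vehicle (-0.18).

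Of the DnaJ proteins of the import motor, Dnajc15 had a log2 difference of 0.11 and Dnajc19 a mean of 0.08, although the Dnajc19 probes stood at -0.27 and 0.43. Dnajc30, another mitochondrial DnaJ protein, was at 0.08. Dnajc11, a protein of the mitochondrial membranes, had 1 probe spotted 10 times. Over the 8 spots free of outlier flags on both arrays, the intensity ran from 47.1 to 59.3 (median 55.1) in cholic acid and from 56.5 to 71.4 (median 63.4) in vehicle. The difference per spot was 0.26 ± 0.14 (SD over spots of 1 array pair), from 0.01 to 0.47. All 8 spots lay above 0. Over all 224 probes with at least 8 such spots, the median SD of the difference was 0.094. RefSeq names 5 pseudogenes of Hspd1 and 7 pseudogenes or related sequences of Hspe1, whose transcripts a probe might also bind.

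Hspd1 and Hspe1 are neighbours that run away from each other, and their upstream windows share a stretch (GRCm38.p6 chr1:55088053-55088082) with the heat shock element, spelled here as GAA, any 2 bases, TTC, any 2 bases and GAA. The element was searched on both strands in the 250 bases before each RefSeq gene start, for 76 windows of 59 of the 73 members. The members without a window, which were not searched, include Hspa8, Hsp90aa1, Hsp90ab1, Hspa9, Hspa13, Dnajc2 and Dnajc18. It was found in 4 windows of 3 genes (Hspd1, Hspe1 and Dnajb6; 5.26%), against 0.466% of all 32851 windows. These are 2 distinct stretches, since the Dnajb6 windows overlap and hold the same match. In the stretch below, shown because both chaperonin genes share it, capitals mark 2 overlapping matches.
Hspe1, plus strand: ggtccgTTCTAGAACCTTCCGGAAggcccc
Dnajb6 (GRCm38.p6 chr5:29735844-29735873, plus strand): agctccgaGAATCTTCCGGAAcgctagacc

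The genes that hold these letters had differences of 0.31, 0.11 and, as a mean of unlike probes, -1.45. A match is a description of the letters, and no match, as for Hspa1a, Dnajb1 and Hsph1, says only that this spelling is not in the window.

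In the ER, the abundant chaperones had differences of 0.51 and 0.31, and their DnaJ partners lay on both sides of 0. Hspa5 (BiP), the HSP70 of the ER lumen, read 8310 ± 831 in cholic acid and 8370 ± 837 in vehicle, which after scaling is a log2 difference of 0.51 (1.42-fold higher, scanner error 0.20, neighbour SD 0.37). Hsp90b1 (GRP94), the HSP90 of the ER, read 6040 in cholic acid and 6970 in vehicle (0.31). Hspa5 was above the median of all genes in 10 of 10 alternatives, while Hsp90b1 fell below it in 1 of them. Hspa13, a microsomal HSP70 relative, had a mean of -0.12 over 2 probes.

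Among the ER DnaJ proteins, Dnajb9 (ERdj4), which takes BiP to the stress sensor IRE1, had 2 probes, at 469 and 93.3 in cholic acid and at 1100 and 153 in vehicle. Their differences were -0.71 and -0.20, with a mean of -0.46. Dnajb11 (ERdj3) read 1950 in cholic acid and 2660 in vehicle (0.07), Dnajc3 (p58IPK) read 240 in cholic acid and 382 in vehicle (-0.15), and Dnajc10 (ERdj5), a disulfide reductase, had a mean of 0.20. Dnajc18, a DnaJ of the ER membrane, was 2.14-fold higher, at 90.6 ± 9.60 in cholic acid and 60.6 ± 6.94 in vehicle (1.097, scanner error 0.23). It stayed at least 2-fold higher in only 3 of 9 alternatives. The ER membrane DnaJ genes Dnajb12 and Dnajb14 had differences of -0.04 and 0.22, and Dnajc1, Dnajc14, Dnajc16 and Dnajc25 lay between -0.39 and 0.56.

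The ER stress response element, spelled here as CCAAT, any 9 bases and CCACG, searched on both strands, occurred in the upstream windows of Hspa5, Hsp90b1 and Dnajc3 (3 of 76 windows, 3.95%), against 0.113% of all windows. Capitals mark it in the 250 bases before the starts of the 2 abundant ER chaperones and in a 30-base stretch of Dnajc3. On the second Hsp90b1 match it runs on the other strand.
Hspa5 (GRCm38.p6 chr2:34771840-34772089, plus strand): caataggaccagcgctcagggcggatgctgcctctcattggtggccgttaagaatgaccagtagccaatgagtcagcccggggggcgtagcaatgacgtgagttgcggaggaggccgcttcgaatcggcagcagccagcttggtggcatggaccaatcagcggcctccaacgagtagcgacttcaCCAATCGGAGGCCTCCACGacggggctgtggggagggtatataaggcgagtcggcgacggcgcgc
Hsp90b1 (GRCm38.p6 chr10:86705445-86705694, minus strand): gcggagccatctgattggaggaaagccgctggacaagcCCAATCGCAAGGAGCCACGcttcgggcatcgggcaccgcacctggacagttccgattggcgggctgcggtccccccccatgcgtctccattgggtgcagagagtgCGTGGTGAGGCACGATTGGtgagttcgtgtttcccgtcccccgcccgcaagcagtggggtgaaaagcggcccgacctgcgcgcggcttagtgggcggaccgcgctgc
Dnajc3 (GRCm38.p6 chr14:118937822-118937851, plus strand): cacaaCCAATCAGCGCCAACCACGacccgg

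The 3 genes with this element had differences of 0.51, 0.31 and -0.15, and differences among them were not tested. Of 29 other genes listed for ER folding and ER stress, 27 were measured, with 0 at least 2-fold higher (6.56% of all genes) and 3 at least 2-fold lower (2.05% of all genes), and a median of 0.14 against 0.08 for all genes. The 3 were Herpud1, a helper of ER-associated degradation (1200 in cholic acid and 3780 in vehicle, 2.20-fold lower), and the stress sensors Eif2ak3 (PERK; 245 in cholic acid and 742 in vehicle, 2.12-fold lower) and Atf6 (14.3 in cholic acid and 41.8 in vehicle, 2.04-fold lower). The Atf6 reading in cholic acid lay near the lowest signal of a probe well above background on that array (11.2). The 27 genes ran from -1.14 (Herpud1) to 0.99 (Derl3, of ER-associated degradation), with 15 above 0 and 12 below.

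The 3 nuclear members were above 0, as were 57.4% of all genes. Dnajc9, a chaperone of histones H3 and H4, read 879 ± 87.9 in cholic acid and 604 ± 60.5 in vehicle at its probe (mm9 chr14:21204183-21204242, minus strand). This is a log2 difference of 1.06 (2.08-fold higher, scanner error 0.20, neighbour SD 0.38), and at least 2-fold in 7 of 10 alternatives. Dnajc8 and Dnajc17, linked to splicing, had differences of 0.32 (mean of 3 probes, neighbour SD 0.45) and 0.28 (neighbour SD 0.54). Dnajc22, a membrane DnaJ given no compartment, read 1010 ± 101 in cholic acid and 2040 ± 204 in vehicle (-0.50), and Dnajc4 was at -0.18. Of the genes that only carry the name, Hspb11 was at 0.36 and Hspbp1, a nucleotide exchange factor of HSP70, at 0.27.

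In the list of HSF1 and cochaperones, 25 of 28 genes were measured, with 1 at least 2-fold higher, 0 at least 2-fold lower and a median of 0.10, where 6.56% of all genes were higher and 2.05% lower by that limit. The 1 was Fkbp5, a cochaperone of HSP90 on steroid receptors (174 in cholic acid and 119 in vehicle, 2.09-fold higher). Fkbp5 has 1 probe, at 1.06, and falls below 2-fold under the scalings that shift all genes by -0.23 or -0.13. Its relative Fkbp4 was at 0.59, and Hsf1 itself read 85.3 in cholic acid and 86.0 in vehicle (0.50). Hsf2 was well above background in cholic acid only (24.2 in cholic acid, 13.3 in vehicle), with a bound of 2.37-fold higher there, taken as for Dnajb8. Bag3, an HSF1 target that hands clients to autophagy, was at -0.07.

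The cytosolic chaperonin TRiC and its partner prefoldin were measured in full, 14 of 14 genes, with a median of 0.13. Of these genes 0 were at least 2-fold apart, where 6.56% of all genes were higher and 2.05% lower by that limit. The largest differences were those of the prefoldin subunits Pfdn4 (0.72), Pfdn6 (-0.40) and Pfdn2 (0.32) and of Cct5 (0.27). The 8 TRiC subunits, which fold actin and tubulin, ran from -0.20 (Cct6a) to 0.27.

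**Figure D4:**
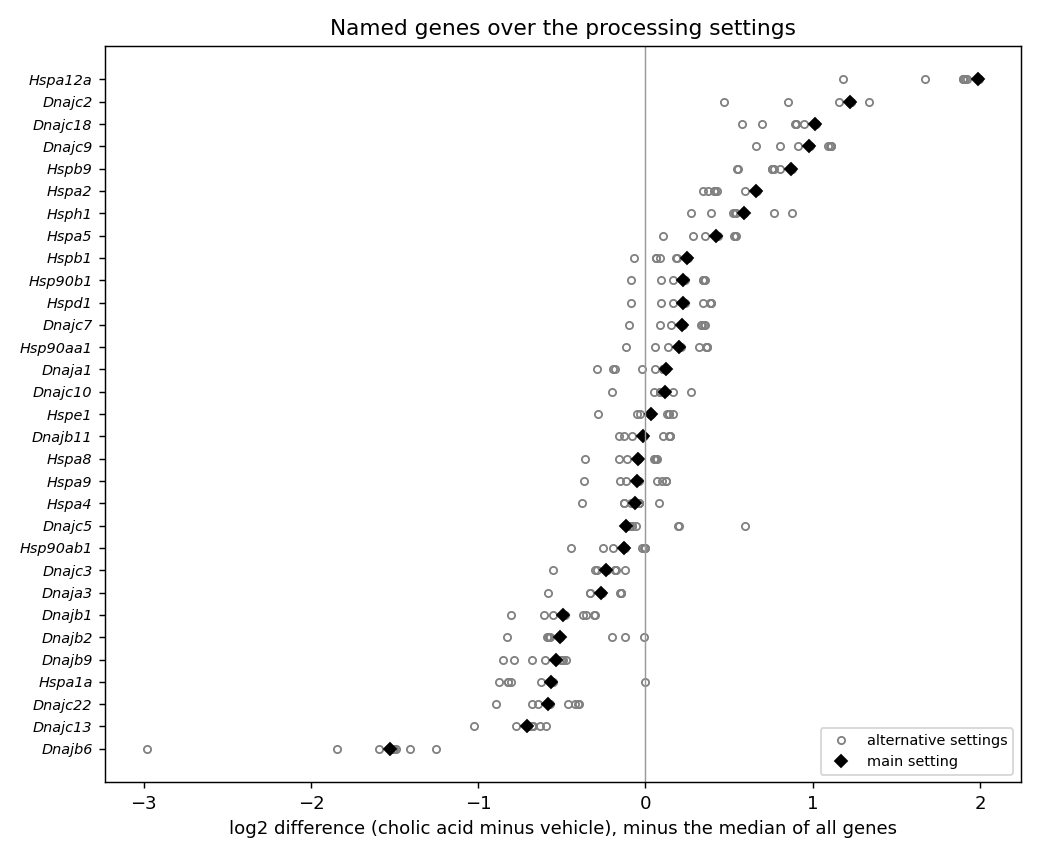
Log2 difference (cholic acid minus vehicle) of 31 named members minus the median of all genes, in the main setting (diamonds) and in up to 10 alternative settings (open circles). Hspa12a, Dnajc2, Dnajc18 and Dnajc9 stay right of 0 and Dnajb6 left of it in each alternative that measured them, while genes near 0, such as Hspa8 and Hspa4, cross it.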

How the data were processed

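Per the file headers, the deposited scanner files were made with Agilent Feature Extraction 10.7.1.1 (the submitters' processing notes list 9.5.1.1) and hold processed intensity values, background-subtracted and detrended, with flags per spot, for probes placed on mm9. A table of intensity values processed by the authors, with like distributions in both columns, served as an alternative. From these files, spots with non-uniformity or population outlier flags were left out (119 non-control spots in cholic acid and 124 in vehicle, 3 and 2 of them of members), and log2 intensity was averaged across a probe's spots. A probe flag needed at least 50% of its spots. From each array its 75th percentile was subtracted, taken across the 22613 probes that were well above background on both, and a gene's difference was the mean over such probes. No spot was saturated. Genes were named through RefSeq (GRCm38.p6), by accession for 27233 probes, and 22868 probes stayed unnamed. The neighbour SD is the robust SD of the 1000 genes nearest in signal. Alternatives used limma 3.58.1 (normexp, offset 50) and lowess in statsmodels 0.14.6 (span 0.3). The steps were tested on simulated data. The number of arrays, 1 per condition, limits the precision.

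The members, the lists of compartments, pathways and markers, and the rule for named genes were chosen with earlier results of these data known. Named were core chaperones whatever their values, members at least 2-fold apart or bounded so, the 6 largest differences in each direction, the 6 brightest, genes whose probes disagree with 1 at least 2-fold apart, and pathway list genes past 2-fold, failing which up to 4. Other examples were chosen after their values were seen. Sequences are those of the probes in the files and of RefSeq promoters.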

Additional observations from a re-analysis of the deposited data

Results flagged for a closer look

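A pair of probes outside the name rule, which enter no gene value above, carried signal. Only 1 of 308 negative control spots was well above background on each array. A probe that the files describe as an expressed tag similar to rat hsp60 read 2170 in cholic acid and 2420 in vehicle (log2 difference 0.36), beside 0.31 for Hspd1. A probe on another Dnajc19 transcript read 271 in cholic acid and 308 in vehicle (0.33), beside -0.27 and 0.43 for the Dnajc19 probes above. Neither array had the probe of an HSP27-like tag well above background.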

How the results depend on the processing

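With 1 array per condition there is no spread between samples, so every count and median below describes 1 pair of arrays. No paired analysis was possible because each condition has 1 array. Signals near background limit the dim genes most. The count of members at least 2-fold higher in cholic acid (4) was 2 with the 75th percentile over all probes, with median centring, with normexp and with only the probes brighter than the median, 3 with quantile, loess and the authors' values, 6 with the positive and significant flag and with no filter, 7 at a 1.5-fold limit and 1 at a 3-fold limit. The count at least 2-fold lower (1) was 2 at 1.5-fold and 0 at 3-fold. With the percentile over all probes and with median centring, the medians were -0.16 and -0.066 for cytosolic, -0.14 and -0.042 for mitochondrial and -0.10 and -0.0015 for ER members, -0.12 and -0.031 for the HSF1 list, -0.090 and 0.0046 for the ER stress list, and -0.10 and -0.0063 for the cytosolic chaperonin list. The cytosolic median was 0.20 with normexp, 0.21 with the positive and significant flag and 0.30 with no filter, and that of the ER stress list was 0.028 with those brighter probes. These settings moved the median of all genes as well, by -0.23 and -0.13 in the first 2. It rose by 0.10 with normexp, by 0.065 with the positive and significant flag and by 0.32 with no filter. Relative to the median of all genes, the cytosolic median was 0.02 with normexp, 0.06 with that flag and -0.10 with no filter. Of 31 named members, 22 kept their sign in every alternative, and of 304 recomputed values 135 moved by more than the SD of repeated spots, while none that reached 2-fold changed sign.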

Other observations

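Hspb7, a small heat shock protein of heart and muscle, had 1 probe spotted 10 times, and neither array had it well above background by the rule used. Over the 7 spots free of outlier flags on both arrays the intensity ran from 2.71 to 7.59 in cholic acid and from 2.93 to 3.60 in vehicle. The other 3 spots carried an outlier flag on at least 1 array. One of these read 34.8 on the vehicle array, well above background there, and 3.10 on the cholic acid array.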
